A study of Mus musculus with 15 samples.

Results

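The hexosamine biosynthetic pathway and the enzymes of O-GlcNAc cycling were followed through 9 genes, Gfpt1, Gfpt2, Gnpnat1, Pgm3, Uap1, Nagk, Amdhd2, Oga and Ogt, out of 55291 genes in each table. All 9 were found by symbol, with Oga listed as Mgea5 in the FPKM table. They were chosen by their place in the pathway, with earlier results of these comparisons known, so their values in the treatment comparisons are given as a description. RNA came from HY19636, a line of pancreatic ductal adenocarcinoma (PDAC) from engineered C57BL/6 mice whose alleles include p53 L/+ and Ptf1a-Cre, and all samples carry the genotype of this line. There were 5 groups of 3 libraries. Of the cultured cells, one group was left as controls (CNT), one received DON at 25 µM for 24 h and one was kept in medium with no Gln for 24 h (noGln). The medium was DMEM with 10% serum. The other 6 libraries were orthotopic tumors of the same line in the pancreata of B6J mice, given vehicle (VEH) or DRP-104 at 3 mg per kg over 2 cycles, each of 5 treatment days followed by 2 days of rest, with tumors taken 21 days after transplantation. DON is a Gln analog that inactivates enzymes that take the amide nitrogen of Gln, and DRP-104 is a prodrug of DON. All cultures are 1 line, nothing in the labels says whether the 3 cultures of a group were grown separately, and the tumors also hold cells of the host.

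The hexosamine pathway turns fructose-6-phosphate into UDP-GlcNAc. Gfpt1 and its paralog Gfpt2 encode GFAT, the rate-limiting enzyme, which takes the amide nitrogen of Gln and is therefore a direct target of DON. GNPNAT1 then adds an acetyl group, PGM3 moves the phosphate and UAP1 attaches UDP. Nagk, the GlcNAc kinase, feeds salvaged GlcNAc into the pathway without Gln, and Amdhd2 removes the acetyl group from GlcNAc-6-phosphate and so runs against the forward direction. UDP-GlcNAc is used for N-glycans, hyaluronan and O-GlcNAc, a single sugar on nuclear and cytosolic proteins that is added by OGT and removed by OGA. Splicing of retained introns in Ogt and Oga transcripts is known to respond to O-GlcNAc, and gene-level values do not separate such isoforms.

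The files give normalized counts, which are gene counts divided by a size factor for each library, and whole reads were recovered from them. Libraries held 25.2 to 48.2 M reads in culture and 16.3 to 20.7 M in tumors. The 5 epithelial markers (Krt8, Krt18, Krt19, Epcam, Cdh1) were present in all groups, with a summed normalized count of 328447 to 424061 in CNT 108927 to 117157 in DON cells, 133319 to 146613 in noGln cells and 98000 to 145685 in tumors, and their part in the culture results was not tested. The fibroblast genes Col1a2, Dcn and Lum were at 0 in every culture library, as were Adgre1 and Lyz2 of macrophages, Cd3e and Cd3g of T cells and the 4 islet genes searched. Other members of the first 3 lists were detected in culture, so these lists do not mark host cells alone. Pdgfra had a mean of 544 in CNT, 139 in DON and 1080 in noGln cells, and Cd68 had 65.5, 823 and 28.4. Col1a1, Lck and Trac had means of 24.1, 42.2 and 63.7 in CNT. Means of Csf1r, C1qa and Cd8a were under 10 in every culture group. In tumors the ranges of the macrophage, T cell, acinar, islet and goblet or gastric-like lists overlapped between DRP-104 and VEH, but DRP-104 tumor 3 stood apart. Its T cell markers summed to 1160, against 35.8 to 70.6 in the other 5 tumors, and its goblet or gastric-like markers to 26956, against 3964 to 12246. As RPKM, the recovered reads scaled to gene length and library size, the highest member in CNT cells was Amdhd2 at 41.3 ± 3.39 (SD, n = 3), followed by Oga at 35.3 ± 3.71, Uap1 at 26.0 ± 2.69, Gfpt1 at 23.8 ± 2.52, Ogt at 15.8 ± 2.62, Nagk at 8.14 ± 0.13 and Pgm3 at 6.90 ± 0.44. The ranges of Amdhd2 and Oga overlapped, as did those of Uap1 and Gfpt1, and the other neighbors in this order did not overlap. Gnpnat1 stood at 0.105 ± 0.081 and Gfpt2 at 0 reads in all 9 culture libraries, where up to 3 reads per library would go unseen.

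**Figure D1:**
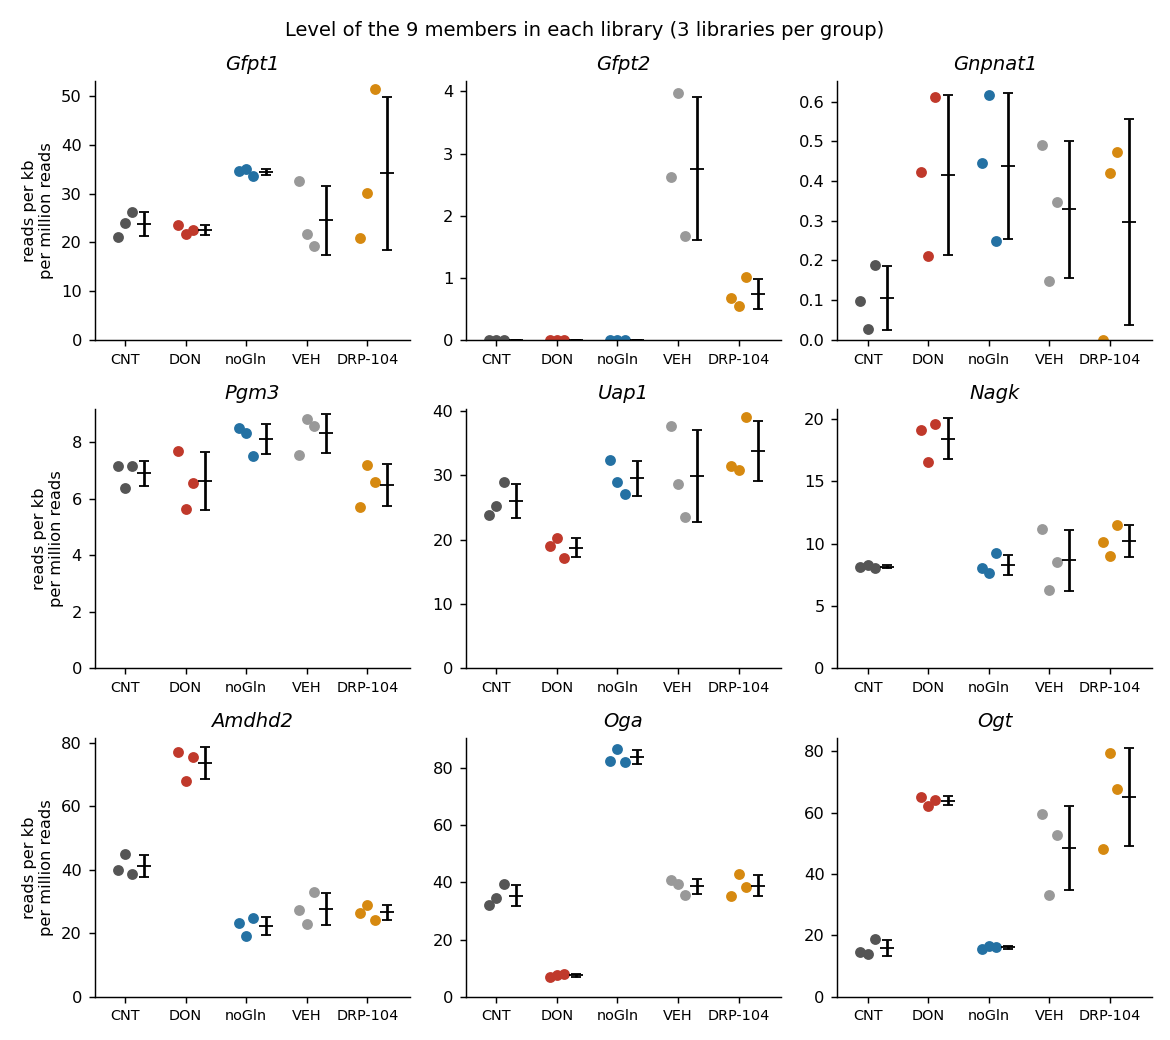
RPKM from the recovered reads of each of the 9 genes in every library, with 1 point per library, groups on the horizontal axis and the mean with SD beside the points; each vertical axis starts at 0. Oga lies at 7.02 to 7.96 after DON and at 82.2 to 86.5 without Gln, while Ogt lies at 62.3 to 65.2 after DON and at 15.7 to 16.4 without Gln.

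DON and the absence of Gln left different patterns along the pathway. After DON, Oga fell and Ogt rose, each by more than 3-fold, the salvage kinase Nagk and the deacetylase Amdhd2 rose, and Uap1 fell. Without Gln, Oga rose instead, Amdhd2 fell, Gfpt1 rose, and the values of Ogt, Nagk, Uap1 and Pgm3 overlapped those of CNT cells. In limma fits of log2(value + 1) across all genes (Benjamini-Hochberg adjusted p-value under 0.05), 7 of the 8 members with a mean of at least 10 were called after DON, 4 higher and 3 lower, where 68.1% of all 13556 genes were called, 33.3% higher and 34.7% lower. The groups did not overlap for these 7 members and for 71.9% of all genes. The same count without Gln was 4 of 8, 3 higher and 1 lower, where 69.4% of 13390 genes were called, 34.5% higher and 34.9% lower, and those 4 did not overlap, as for 73.6% of all genes. Gfpt2 did not pass the filter in culture. The median log2 change of the 8 members was 0.24 after DON and 0.10 without Gln, beside 0.02 and 0.01 over all genes tested. Both comparisons use the same 3 CNT libraries.

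At the entry of the pathway, Gfpt1 (chr6:87042846-87092197, plus strand, GRCm38) had normalized counts of 4442, 4060 and 4165 in DON cells and 4507, 5098 and 5115 in CNT cells. The DON libraries all lay below the CNT libraries by a narrow margin, with a log2 fold change of −0.22 (SE 0.089). The call on this difference was lost in edgeR and DESeq2 fits, with no filter, and without any 1 of the 3 DON libraries or CNT library 2. Quantile normalization brought it to −0.05. In cells without Gln, Gfpt1 was at 6376, 6400 and 6083, against 4248, 4815 and 4933 for CNT in that table, and its log2 fold change was 0.43 (SE 0.084). Every noGln library was above every CNT library. On the joint scale of all 9 culture libraries, Gfpt1 was lower after DON than without Gln by 1.53-fold, a log2 fold change of −0.62 (SE 0.076).

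Among the next steps, Uap1 (chr1:170141938-170174957, minus strand), which makes UDP-GlcNAc itself, was at 1321, 1401 and 1178 after DON against 1874, 1981 and 2095 in CNT. All DON libraries lay below all CNT libraries, and the log2 fold change was −0.61 (SE 0.10). Without Gln it was at 2206, 1962 and 1817, against 1766, 1871 and 2020, which overlap. Pgm3 (chr9:86554377-86571842, minus strand) ranged from 450.6 to 617.2 after DON and from 579.5 to 651.4 in CNT, a log2 fold change of −0.21 (95% interval −0.50 to 0.08). Without Gln its log2 fold change was 0.13 (95% interval −0.12 to 0.37). It shares 28.3% of its exon bases with Dop1a on the opposite strand.

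Gnpnat1 (chr14:45376334-45388802, minus strand) had few reads. Its normalized counts were 33.4, 16.6 and 47.9 after DON and 8.8, 2.5 and 15.6 in CNT, and the log2 fold change was 1.90 (SE 0.61). The call was lost without DON library 3, at 1.57. Without Gln the log2 fold change was 2.03 (SE 0.59). In GENCODE M21, where this gene extends to position 45404913, all of it lies within Styx on the opposite strand. Of its 4735 exon bases in that annotation, 81.9% are shared. In VEH tumors the FPKM table gives it 15.3, while the normalized counts correspond to an RPKM of 0.329, a ratio of 46.6. Ratios of the other members in VEH tumors lay between 0.819 and 1.86. In DRP-104 tumors the ratio was 36.4 for Gnpnat1, 6.78 for Gfpt2 and 0.689 to 1.16 for the rest. The values of Gnpnat1 in the count tables are therefore uncertain as a measure of GNPNAT1 transcript.

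On the salvage and reverse side, Nagk (chr6:83794982-83803420, plus strand) was at 1104, 953.0 and 1117 after DON against 532.0, 539.5 and 480.6 in CNT. Its log2 fold change was 1.03 (SE 0.12) and the groups were far apart. Without Gln, Nagk was at 452.2, 431.6 and 511.5 against 501.3, 509.6 and 463.5, with a log2 fold change of −0.08 (95% interval −0.34 to 0.18) that turned to 0.02 under quantile normalization. Amdhd2 (chr17:24155833-24163766, minus strand) moved in opposite directions. It was at 3557, 3124 and 3444 after DON against 2088, 2349 and 1854 in CNT, a log2 fold change of 0.69 (SE 0.10). In noGln cells it was at 1045, 853.9 and 1096 against 1967, 2219 and 1788, a log2 fold change of −0.998 (SE 0.12). No library of either treated group overlapped CNT. Between the treatments, Amdhd2 was 3.30-fold and Nagk 2.21-fold higher after DON than without Gln.

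Upstream sequence is shown for Amdhd2, which changed in opposite directions, for Gfpt1, which rose without Gln, and for Ogt, which rose after DON. The small fall of Gfpt1 after DON lost its call in several alternatives. Oga also changed in opposite directions, but its window lies in an exon of a longer annotated transcript and is not shown. The windows run from 130 to 5 bases before the RefSeq start site (GRCm38.p6), read 5′ to 3′ on the strand of the gene, and capitals mark ACGTG on either strand. ACGTG is the core of unfolded protein response elements.
Amdhd2, chr17:24163738-24163863, minus strand: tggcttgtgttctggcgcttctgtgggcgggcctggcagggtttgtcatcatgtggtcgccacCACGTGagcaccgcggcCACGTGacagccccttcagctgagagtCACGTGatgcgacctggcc
Gfpt1, chr6:87042716-87042841, plus strand: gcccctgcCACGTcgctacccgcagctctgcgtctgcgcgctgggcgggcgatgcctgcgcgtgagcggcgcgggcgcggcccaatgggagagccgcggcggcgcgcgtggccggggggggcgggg
Ogt, chrX:101639921-101640046, plus strand: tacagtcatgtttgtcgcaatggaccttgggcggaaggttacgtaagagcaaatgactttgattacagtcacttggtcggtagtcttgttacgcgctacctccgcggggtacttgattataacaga
The Amdhd2 window holds 3 copies of CACGTG, the palindromic E-box, starting 67, 50 and 23 bases before the start site, and each holds ACGTG on both strands. The last 29 bases of this window, which include the third copy, are annotated as Amdhd2 exon in GENCODE M21. Among 32851 RefSeq promoter windows of 300 bases, 0.0883% held at least 3 copies of CACGTG and 7.15% at least 1, and this search was added after the sequence was seen. ACGTG stood in the 300-base windows of 5 members (Gfpt1, Gfpt2, Pgm3, Uap1 and Amdhd2) and in 19.6% of all windows. The C/EBP-ATF element TGATGNAA (3.97% of windows) and the ER stress element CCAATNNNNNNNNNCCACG (0.119%) were found on neither strand in any member, and Gnpnat1 had no window in the table.

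After DON, and between DON and noGln cells, the enzymes of O-GlcNAc cycling differed most among the members other than Gnpnat1, whereas without Gln this held for Oga and not for Ogt. Oga (chr19:45750261-45783520, minus strand), which removes the sugar, was at 1061, 1126 and 1189 after DON against 5487, 5906 and 6182 in CNT. This was a 5.20-fold decrease, with a log2 fold change of −2.38 (SE 0.091). In noGln cells it was at 12202, 12744 and 11961 against 5171, 5579 and 5962, a 2.21-fold increase with a log2 fold change of 1.14 (SE 0.082). DON libraries lay far below and noGln libraries far above their controls. On the joint scale, Oga was 11.2-fold lower after DON than without Gln (log2 fold change −3.49, SE 0.077). The antisense gene Gm15491 shares 6.41% of the exon bases of Oga.

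Ogt (chrX:101640060-101684351, plus strand), which adds the sugar, was at 10563, 10072 and 10254 after DON against 2674, 2573 and 3170 in CNT. Its log2 fold change was 1.88 (SE 0.095), a 3.68-fold increase. Without Gln it was at 2480, 2589 and 2529 against 2520, 2430 and 3057, so the groups overlapped. The log2 fold change there was −0.07 (95% interval −0.28 to 0.14) and became 0.03 without CNT library 3. On the joint scale, Ogt was 3.95-fold higher after DON than without Gln.

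The ratio of the per-length levels within a library does not depend on the scaling between libraries. Ogt over Oga was 0.447 ± 0.037 in CNT (SD, n = 3), 8.56 ± 0.647 in DON and 0.192 ± 0.0044 in noGln cells. The 3 culture groups did not overlap, and DON and noGln lay on opposite sides of CNT. The ratio of Amdhd2 to Gfpt1, the enzymes that run against and into the pathway, was 1.75 ± 0.234 in CNT, 3.26 ± 0.118 in DON and 0.649 ± 0.097 in noGln cells, again without overlap.

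**Figure D2:**
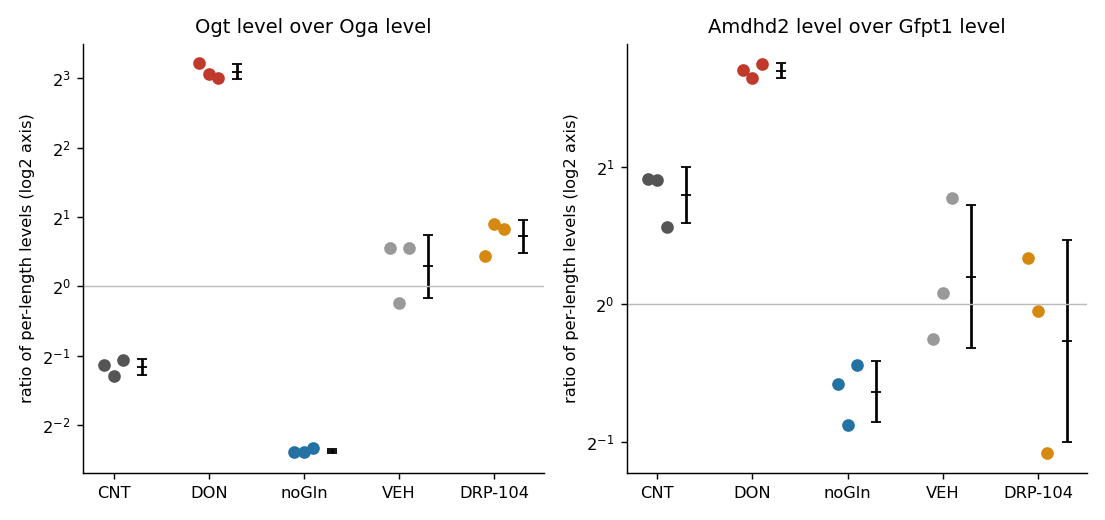
Ratio of per-length levels of Ogt to Oga (left) and of Amdhd2 to Gfpt1 (right) in each library, on log2 axes, with the mean and SD of the log2 ratio beside the points and a line at 1. The Ogt to Oga ratio is 8.05 to 9.29 after DON and 0.190 to 0.197 without Gln, and that of the tumors lies between 0.845 and 1.86.

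Set directly against each other on the joint scale, DON and noGln cells differed in 7 of 8 members, 3 higher and 4 lower after DON, where 63.3% of 13514 genes were called, 31% higher and 32.3% lower. The groups did not overlap for 6 of these, all but Pgm3, and for 71.7% of all genes. Higher after DON were Ogt, Amdhd2 and Nagk, and lower were Oga, Gfpt1, Uap1 and Pgm3. Uap1 differed by 1.58-fold. Pgm3, at a log2 difference of −0.31 (SE 0.12), lost its call in edgeR and DESeq2 fits, with no filter, under quantile normalization, and without DON library 2 or 3 or noGln library 1 or 2; without DON library 2 it was −0.20. Gnpnat1 differed by −0.11 (95% interval −1.33 to 1.11), a span too wide to tell.

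**Figure D3:**
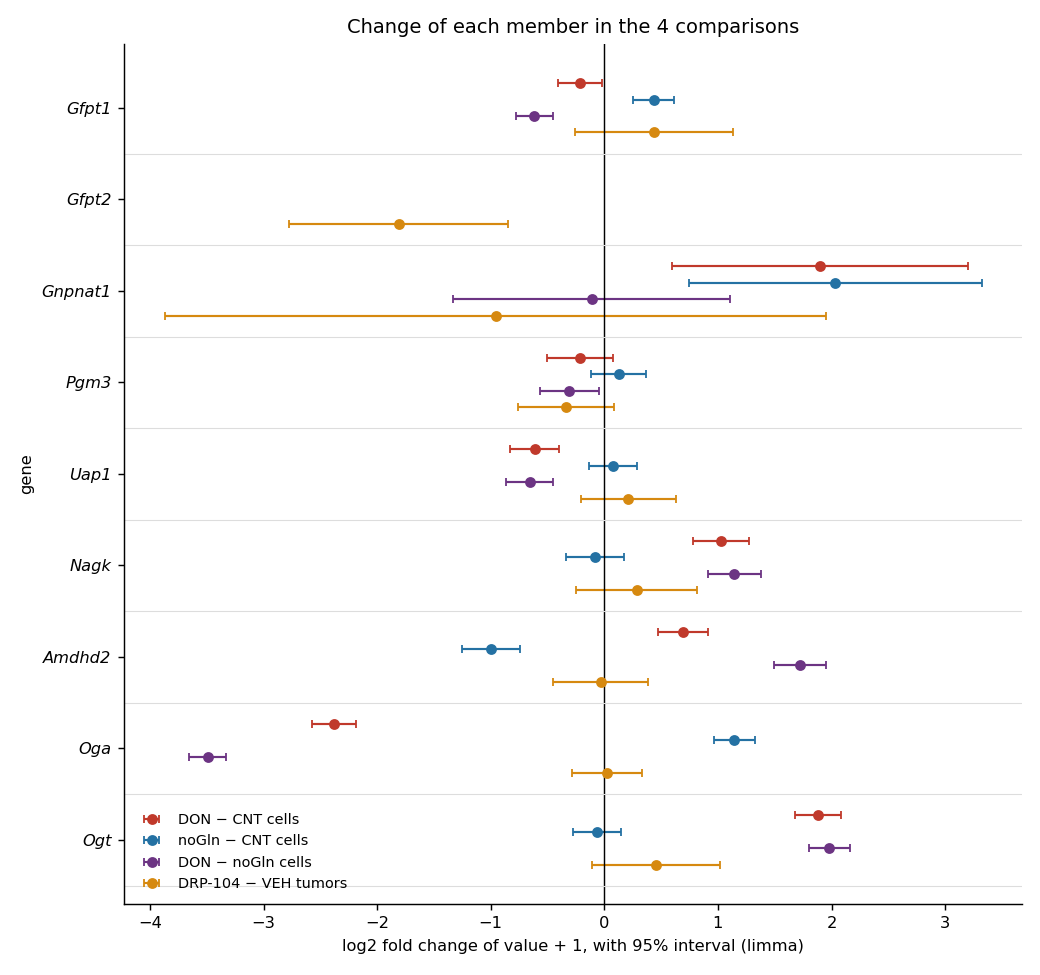
Log2 fold change of value + 1 with its 95% interval from limma for each member in 4 comparisons: DON and noGln cells each against CNT, DON against noGln cells on a joint scale, and DRP-104 against VEH tumors. For Oga the DON point stands at −2.38 and the noGln point at 1.14, and the tumor point at 0.02; Gfpt2 has a tumor point only.

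A list of 37 other genes of amino sugar and UDP-GlcNAc metabolism gives the surroundings of the members, and 33 of them passed the filter in culture. After DON 25 of the 33 were called by limma, 8 higher and 17 lower, beside 68.1% of all genes, 33.3% higher and 34.7% lower. Under quantile normalization 10 were called higher and 14 lower, where 56.0% of the calls over all genes were higher. Largest among the increases with a mean of at least 100 were Gnpda1, a deaminase that returns glucosamine-6-phosphate to fructose-6-phosphate, with a log2 fold change of 1.68 (SE 0.094), the lysosomal hexosaminidase subunit Hexa (1.68, SE 0.11) and Uap1l1, a paralog of Uap1 (1.24, SE 0.10). Among the largest decreases were those of Mgat5, a branching enzyme of N-glycans (−1.81, SE 0.11), and Alg14, which helps add GlcNAc to the lipid-linked N-glycan precursor (−1.60, SE 0.15). By role, 12 of the 16 measured users of UDP-GlcNAc fell after DON and 1 rose, where 34.7% of all genes fell, and both glucosamine-6-phosphate deaminases, Gnpda1 and Gnpda2, rose.

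Without Gln 26 of the 33 were called, 6 higher and 20 lower, beside 69.4% of all genes, 34.5% higher and 34.9% lower. Under quantile normalization 9 were called higher and 19 lower, where 52.2% of the calls over all genes were higher. Highest were the Golgi transporter of UDP-GlcNAc Slc35a3 (1.01, SE 0.16), the related transporter Slc35d2 (0.83, SE 0.15) and Piga, which starts GPI anchors (0.63, SE 0.17). Among the lowest were the Notch-modifying enzyme Lfng (−1.60, SE 0.18) and Mgat3, which adds the bisecting GlcNAc (−1.50, SE 0.093). Of the 16 users of UDP-GlcNAc, 11 fell and 2 rose, where 34.9% of all genes fell. The value of Gnpda1 was −0.04 (95% interval −0.25 to 0.16) here, where it had risen after DON.

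Some of these genes were called in opposite directions by DON and by the absence of Gln. Uap1l1 rose after DON and fell without Gln (−0.85, SE 0.11), as did Mgat4b, another branching enzyme (0.25 and −0.42). Alg13, the partner of Alg14 (−0.53 and 0.54), and Slc35d2 (−0.40 and 0.83) fell after DON and rose without Gln. The DON changes of Mgat4b and Slc35d2 were near the threshold, with adjusted p = 0.036 and 0.040 by limma. On the joint scale 27 of 33 were called between DON and noGln cells (63.3% of all genes), 13 higher and 14 lower after DON, or 14 and 10 under quantile normalization. Among the largest differences were Uap1l1 at 2.13 (SE 0.095) and Gnpda1 at 1.75 (SE 0.083) on the higher side and Alg14 at −1.28 (SE 0.13), Slc35d2 at −1.19 (SE 0.15) and Alg13 at −1.04 (SE 0.12) on the lower side.

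**Figure D4:**
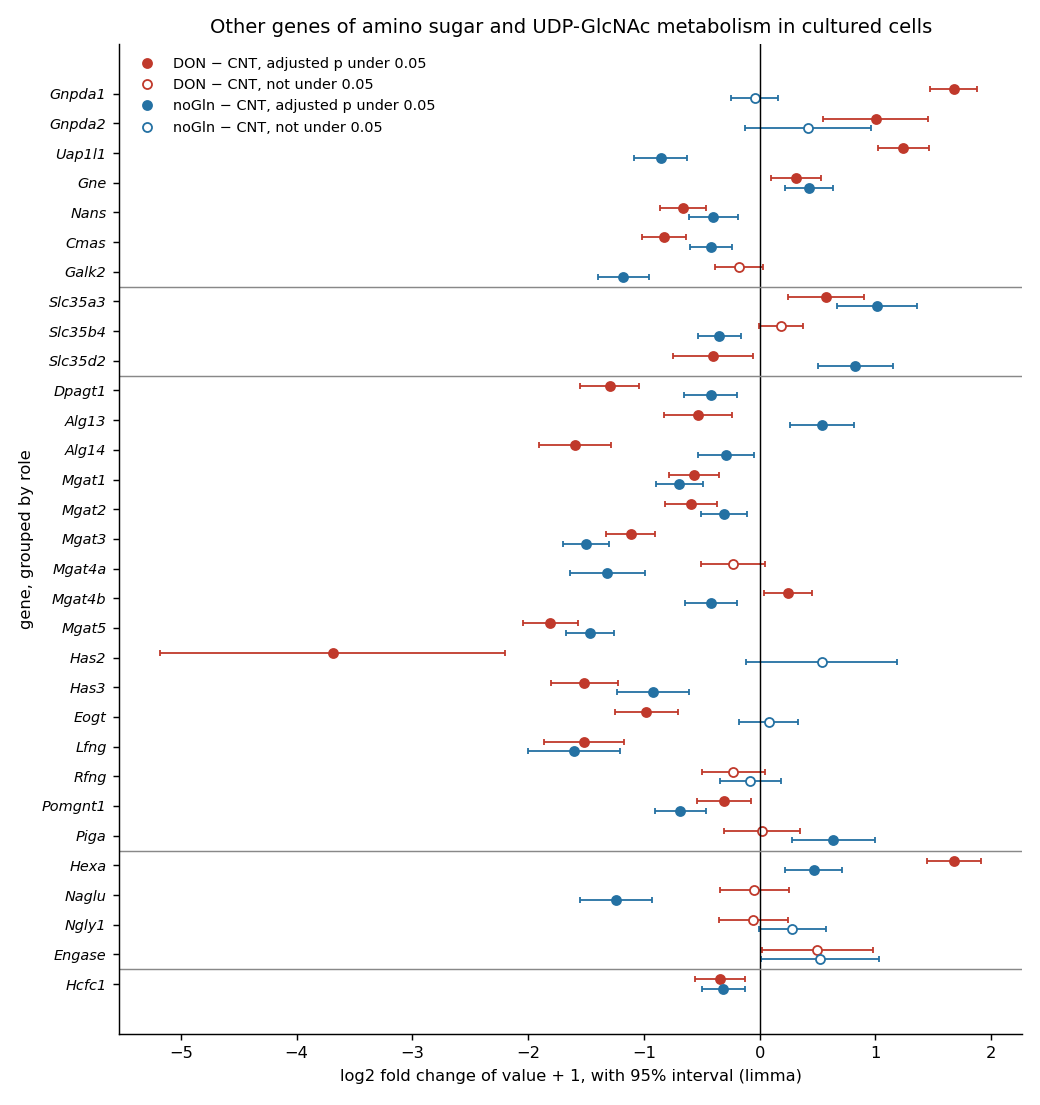
Log2 fold change of value + 1 with its 95% interval for 31 of the 33 other genes in culture, after DON (red) and without Gln (blue), grouped by role from top to bottom as sugar phosphate and sialic acid steps, transporters, users of UDP-GlcNAc, hexosaminidases and N-glycanases, and Hcfc1. Filled points have an adjusted p-value under 0.05; Uap1l1 lies at 1.24 after DON and at −0.85 without Gln. The interval of Has2, which had 0 to 4 reads after DON, is the widest.

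Over the 9 culture libraries, the genes nearest to Gfpt1 in their centered log2 profile, out of 10431 with a mean of at least 100, were Pak2, Rbm28 and Trim24, with root mean square differences of 0.059 to 0.066. Nearest to Oga were Phlda1, F3 and Stxbp6 (0.178 to 0.192), and nearest to Ogt were Fuca2, Gnpda1 and Mcoln1 (0.149 to 0.177). Fuca2, a lysosomal fucosidase, had log2 fold changes of 1.607 after DON and −0.28 without Gln. Mcoln1, a lysosomal cation channel, had 1.71 and 0.05. These libraries share treatments, so likeness is a description.

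In tumors none of the 9 members was called between DRP-104 and VEH by limma, 1 of them had an unadjusted p under 0.05, and 0% of all 15454 genes were called (775 at an unadjusted p under 0.05). edgeR also called 0 members, and DESeq2 called 1, Gfpt2, among 70 of 28696 genes (0.244%). The median log2 change was 0.02 over the members and −0.01 over all genes. Oga was at 3520, 4055 and 3494 in DRP-104 tumors and 3690, 3789 and 3400 in VEH tumors, a log2 fold change of 0.02 (95% interval −0.28 to 0.33). Ogt was at 5126, 8061 and 6627 against 5779, 3431 and 5364, a log2 fold change of 0.45 (95% interval −0.11 to 1.02). The groups overlapped for both. Gfpt1 was at 2591, 3538 and 5821 against 3658, 2592 and 2276, with DRP-104 tumor 3 the highest, and its log2 fold change of 0.44 had a 95% interval of −0.26 to 1.13. Without that tumor, which stood apart in the T cell and goblet lists, the log2 fold change of Gfpt1 was 0.12, that of Ogt 0.44, that of Oga 0.061 and that of Amdhd2 0.064, and no member was called. Nagk, Amdhd2 and Uap1 had log2 fold changes of 0.28, −0.03 and 0.21, and their groups overlapped.

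Of the members, 2 did not overlap between the tumor groups, where 10.6% of all genes did not. Pgm3 was at 301.6, 361.1 and 319.6 in DRP-104 and 361.9, 451.8 and 432.2 in VEH tumors, a log2 fold change of −0.34 (95% interval −0.76 to 0.08). Gfpt2 (chr11:49794178-49838613, plus strand) was at 39.6, 30.0 and 53.9 against 139.4, 224.5 and 93.4, a log2 fold change of −1.81 (SE 0.42), or −2.02 without DRP-104 tumor 3. In the FPKM table of the same groups, whose columns could not be matched to single tumors, Gfpt2 was at 4.23, 4.97 and 5.91 in DRP-104 and 3.99, 4.89 and 6.48 in VEH tumors. There its log2 fold change was −0.01 (95% interval −0.46 to 0.44), so the difference was in 1 of the 2 tables. The 5 fibroblast markers, all measured in tumors, summed to 11693 to 20428 normalized counts in DRP-104 and 25117 to 48005 in VEH tumors. The endothelial markers summed to 962 to 1367 and 1619 to 1841. Neither sum overlapped, beside 10.6% of single genes, and both were taken from the normalized counts only. By staining, the paper found no significant change of cancer-associated fibroblasts in DRP-104 tumors. The part of fibroblast and endothelial RNA in the Gfpt2 values was not tested, and in bulk tissue fewer cells of a type and less RNA per cell cannot be told apart. Gfpt1 also changed sign between the tables, from 0.44 to −0.46, with both intervals including 0.

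**Figure D5:**
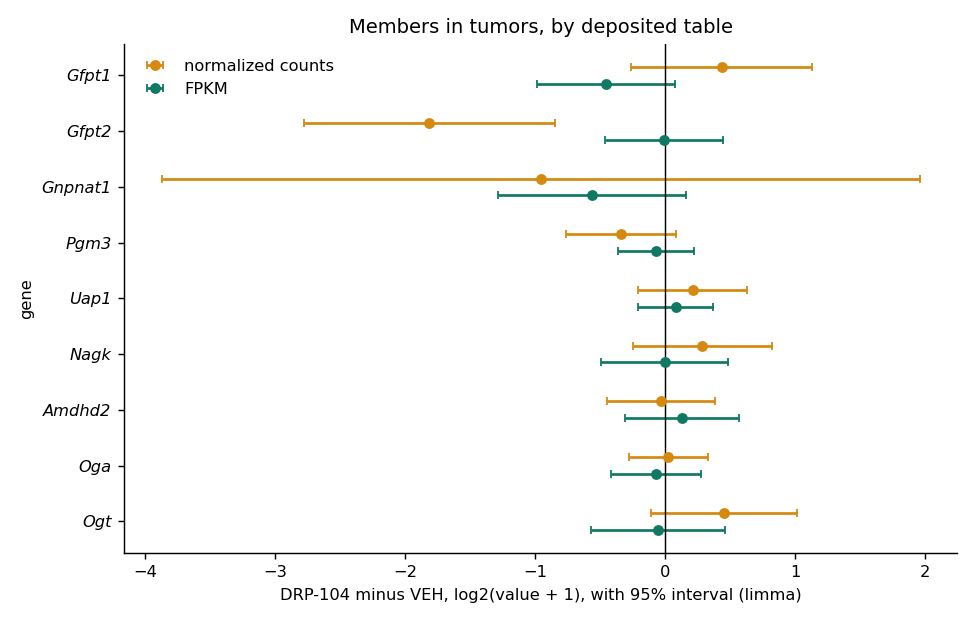
Log2 fold change (DRP-104 minus VEH, value + 1) of the members in tumors with its 95% interval from limma, from the normalized counts (orange) and from the FPKM table (green). The Gfpt2 points stand at −1.81 and −0.01, and the FPKM intervals of all 9 members include 0.

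None of the 36 other pathway genes that passed the filter was called in tumors by limma, 2 had an unadjusted p under 0.05 (Mgat2 at −0.37 and Mgat4b at −0.38, named after their values were seen) and edgeR and DESeq2 called 0. The effect of DRP-104 in tumors was set against that of DON in cells by an interaction contrast, in which 5 of the 9 members were called, 2 higher and 3 lower, and 33.1% of 15070 genes, 19.1% higher and 14% lower. The difference, tumor effect minus cell effect, was 2.40 (SE 0.15) for Oga, −1.43 (SE 0.27) for Ogt, 0.82 (SE 0.21) for Uap1, −0.72 (SE 0.21) for Amdhd2 and −0.74 (SE 0.25) for Nagk on the log2 scale. For each of these the sign of the difference is opposite to the DON effect in cells. None of them was called in tumors, so this sign mostly restates the DON effect and is no separate result. The call of Nagk was lost with no filter, under quantile normalization, and without any 1 of 8 of the 12 libraries (DON 1 and 3, CNT 1 to 3, DRP-104 2, VEH 1 and 3). Dose, time, host and compound differ between these experiments and cannot be told apart. Among the other genes 17 of 36 were called (33.1% of all genes), 12 with a higher and 5 with a lower effect in tumors. The largest were Has2, a hyaluronan synthase (3.01, SE 0.97), Mgat5 (1.73, SE 0.30) and Lfng (1.71, SE 0.29), and on the other side Gnpda1 (−1.63, SE 0.28), Hexa (−1.63, SE 0.19) and Gnpda2 (−1.12, SE 0.32).

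VEH tumors and CNT cells were compared to see how the members stand in tissue without treatment, a contrast the choice of members did not use. Across all 15 libraries scaled together, 2 of the 8 members detected in both were called, Ogt higher and Amdhd2 lower, where 58.9% of 15102 genes were, 33.7% higher and 25.2% lower. The same members did not overlap between the groups, as for 65% of all genes. Gfpt2 passed the filter only through the tumors, so its call as higher was fixed by the filter and is not counted. The shares of all genes given here still include genes that passed in this way. Ogt was higher in tumors, with a log2 fold change of 1.40 (SE 0.18, adjusted p = 7.1e-06 by limma, and 1.8e-13 to 8.6e-05 over all alternatives), and all 3 tumors lay above all 3 cultures. Amdhd2 was lower (log2 fold change −0.77, SE 0.14, adjusted p = 0.00022 by limma, at most 0.0020 over the alternatives). Gfpt2 was at least 75.3-fold higher in VEH tumors, set against 3 reads in each CNT library, and at least 20.46-fold higher in DRP-104 tumors. The median change of all genes was 0.14, and relative to it Ogt stood at 1.26 and Amdhd2 at −0.91. Quantile normalization moved the split of all calls from 5088 higher and 3810 lower to 3510 and 4843. Oga, Uap1, Pgm3, Nagk and Gfpt1 had log2 fold changes of −0.05, −0.01, 0.08, −0.14 and −0.18, without a call. In tumors the order by length-scaled level was Ogt, Oga, Uap1, Amdhd2 and Gfpt1 in VEH, from 48.5 to 24.5, and the ranges of neighbors in it overlapped.

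Of the other genes, 22 of 36 were called between VEH tumors and CNT cells (58.9% of all genes), 12 higher and 10 lower. The 36 include genes that passed the filter only through the tumors. Among these were Renbp and Mfng, with means of 3.44 and 0.417 in CNT against 119 and 39.6 in VEH tumors. Any call of such a gene as higher was fixed by the filter. Highest with a mean of at least 100 were Has2 (4.78, SE 0.62), Gnpda2 (1.42, SE 0.24) and Lfng (1.11, SE 0.23), and among the lowest were Uap1l1 (−2.39, SE 0.33) and Gne, which starts sialic acid synthesis (−1.13, SE 0.14). Has2 reached that mean only through the tumors, with mean normalized counts of 31.5 in CNT and 657 in VEH tumors. The share of genes with 1 to 20 reads that had an even number was 69.6% to 72.7% in culture and 41.9% to 46.5% in tumor libraries. That difference in counting, host cells and growth in tissue cannot be told apart here.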

How the data were processed

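Bulk RNA-seq values of 15 libraries in 5 groups of 3 were used. RNA was isolated by the authors (TRIzol, then PureLink columns). Sequencing, HISAT2 alignment and DESeq2 were done at Novogene. The submitters' processing notes also list STAR 2.5, CASAVA and GRCm39 without roles, while coordinates in the FPKM table match GRCm38. The counting tool and use of strand are not given in the sources used here. The deposited signal in 3 tables is the gene count divided by 1 size factor per library. The authors' FPKM values cover tumors only and give gene length. The FPKM columns did not match the same-named tumors (r of deviations −0.14 to 0.33 over 10297 genes) and were used by group. Control columns of both culture tables are named VEH in their headers and were taken as the control cultures by group, without sample numbers. Columns of the authors' fold changes and p-values were not used.

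Whole reads were recovered from the signal with a tolerance of 0.0051, leaving at least 99.9866% of nonzero values whole in every library, and the control reads were the same in both culture tables for 55291 of 55291 genes. Read depth limits precision, and floors of 3 reads cover counting error only. limma 3.58.1 (trend) in R 4.3.3 tested log2(value + 1) of genes with a mean of at least 10, at a Benjamini-Hochberg adjusted p-value under 0.05. The limma p-values weigh each difference against the spread between the 3 samples of a group, pooled over all groups in the fit and moderated across genes. DON and noGln were scaled together with CNT for their comparison, and all 15 libraries for tumors against cells. As alternatives, the recovered reads were tested by DESeq2 1.42.0 and by the quasi-likelihood test of edgeR 4.0.16, the latter also on reads divided by 2. Further alternatives were other filters, pseudocounts and thresholds, quantile normalization, joint scaling, the FPKM table, a replicate block and leaving out each library. The fits were tested on simulated data.

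All 9 members were named. Of the other genes, those named were the 3 largest rises and falls per comparison with a mean of at least 100, and those called in opposite directions by the 2 treatments. Some genes that this rule names are not reported here, but stay in the counts. The members and lists were chosen with earlier results of these data known. Promoters are from RefSeq (GRCm38.p6) and gene overlaps from GENCODE M21. Tables were handled in Python 3.11.15 (pandas 2.3.3, numpy 2.4.6, scipy 1.17.1). Figures are from matplotlib 3.10.9.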

Additional observations from a re-analysis of the deposited data

Results flagged for a closer look

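The effect of DRP-104 in tumors differed from that of DON in cells for 5 members, by a test of the difference itself across all genes. On the log2 scale, tumor effect minus cell effect was 2.40 for Oga, −1.43 for Ogt, 0.82 for Uap1, −0.72 for Amdhd2 and −0.74 for Nagk. These members were chosen with both effects known, and 33.1% of all genes tested were called by the same contrast.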

How the results depend on the processing

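Alternatives were run on 51 member log2 fold changes and gave 956 values, of which 894 kept the direction and the call, 34 lost the call, 5 gained it and 23 changed sign. No called change changed sign. Signs that turned with the setting were Nagk without Gln at 0.024 (quantile normalization), the FPKM values in tumors of Gfpt1 (−0.46), Nagk (−0.0043), Amdhd2 (0.13), Oga (−0.069) and Ogt (−0.059), and, for tumors against cells, Gfpt1 (0.021), Gnpnat1 (−0.99), Pgm3 (−0.0035), Uap1 (0.10) and Oga (0.15) under quantile normalization and Uap1 (0.013) with DESeq2. Leaving out 1 library at a time turned the sign of Ogt without Gln (range −0.13 to 0.034) and of Gnpnat1 between DON and noGln (−0.46 to 0.29). In tumors it did so for Gnpnat1 (−1.73 to 0.54), Amdhd2 (−0.14 to 0.11) and Oga (−0.047 to 0.061), and for tumors against cells for Uap1 (−0.16 to 0.15) and Nagk (−0.31 to 0.059). Quantile normalization moved the median of all genes to 0.13 after DON, −0.15 for tumors against cells and −0.13 for the interaction.

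DESeq2 called 1 member between DRP-104 and VEH tumors (0.244% of all genes), and a threshold of 0.01 left 3 members in the interaction. Without 1 library, members called ranged from 5 to 7 after DON, 4 to 4 without Gln, 6 to 7 between them, 0 to 0 in tumors, 3 to 4 for tumors against cells (Gfpt2 included) and 4 to 6 in the interaction, and other genes called from 20 to 26, 25 to 28, 21 to 27, 0 to 0, 21 to 24 and 12 to 19. For tumors against cells, the other genes tested include those that passed the filter only through the tumors. In the interaction the call of Gfpt1 was gained without DRP-104 tumor 1 (0.92), as was that of Gnpnat1 for tumors against cells (1.47). In the latter fit that tumor is outside the contrast and enters through the residual variance pooled over the 5 groups. It had 0 reads of Gnpnat1, and the log2 fold change stayed the same. The cause of the other changes was not tested. Same-numbered libraries did not deviate together (r −0.03 to 0.08 for DON and noGln, −0.36 to 0.04 in tumors). No pairing by number was seen, which 3 libraries per group cannot exclude. With the replicate block, 7 of 8 members and 27 other genes were called between DON and noGln, and 0 and 0 in tumors. No block was run for comparisons with CNT, whose columns carry no sample number.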
